A study of Mus musculus with 24 samples.

Results

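The lens of LEGSKO mice was sampled as 2 tissues, the epithelia and the cortical fiber cells, and the difference between these tissues is described here across all genes. The 4 libraries titled LEGSKO Fibers and the 4 titled LEGSKO Epithelia were chosen by their titles, 8 of the 24 libraries of the series. Both groups came from mice with a C57BL/6 background and the LEGSKO genotype, received no treatment, and are labelled mildly glutathione deficient. LEGSKO mice are known as a strain in which Gclc, the catalytic subunit of the enzyme that makes the first bond of glutathione, is deleted in the lens by a Cre recombinase, so all 8 libraries share the deletion and the Cre. The labels give neither the Cre driver nor the age, the sex or how many animals or lenses went into a library. The series measured gene expression by RNA sequencing in WT, LEGSKO and buthionine sulfoximine-treated LEGSKO lenses, 4 libraries of each tissue, and its design text compares conditions only within a tissue. The 4 WT fiber and 4 WT epithelia libraries, also C57BL/6 and untreated, serve below to ask whether the tissue difference itself depended on the genotype.

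The lens epithelium is a single sheet of dividing and transporting cells under the anterior capsule, and at its equator these cells leave the cell cycle and elongate into fibers. Fiber cells fill with crystallins, build a cytoskeleton of beaded filaments and a membrane rich in gap junctions and water channels, and then degrade their nuclei, mitochondria and endoplasmic reticulum. Glutathione is the main soluble antioxidant of the lens, and it is made in the epithelium and outer cortex and reaches the older fibers by diffusion through gap junctions.

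Total counts ran from 22408316 to 25542479 per fiber library and from 20210161 to 25139117 per epithelia library, and 12896 to 13238 genes in a fiber library had at least 10 counts, against 14597 to 14746 in an epithelia library. The 10 most abundant genes took 29.1 to 32.9% of the counts in fibers and 12.3 to 16.2% in epithelia. The lens fiber markers tested stood higher in fibers for 12 of 13. Of the 10 lens epithelial markers, 7 were higher in epithelia, Wls was not called, and Sfrp1 and Aqp5 were higher in fibers. Gclc itself was counted at 96.5, 114, 118 and 111 CPM in the fibers and 48.9, 40.1, 41.1 and 31.3 CPM in the epithelia. Counts over the whole gene do not show whether an exon is missing, so Gclc does not check the genotype label here. Fiber library 1 of LEGSKO stood above the other fiber libraries for several epithelial genes, and WT fiber library 1 held 50.1% of its counts on crystallins.

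Levels below are in CPM, the share of a library's counts scaled to a fixed total, after TMM scaling, which sets the libraries against each other on the bulk of genes, and the sum over all genes therefore differs between tissues. A gene was called where edgeR's quasi-likelihood F test gave a Benjamini-Hochberg adjusted p below 0.05. P-values measure the spread between these libraries, since the labels do not say that they came from separate animals. Fewer cells of a type and less RNA per cell cannot be told apart in such bulk samples.

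In LEGSKO lenses most of the genes tested differed between the tissues. Of 14391 genes tested, 11345 were called, which is 78.8% of those tested: 5404 were higher in fibers (37.6%) and 5941 were lower (41.3%). At 2-fold or more, 2940 genes were higher (20.4%) and 3207 lower (22.3%), and the 4 fiber and 4 epithelia libraries did not overlap for 10735 genes (74.6%). The median log2 fold change over all genes was -0.08. This split depends on the scale: with total counts as the only scaling, the fold changes moved by a median of -1.06 on the log2 scale, and 2183 genes (15.2%) were called higher in fibers against 10694 (74.3%) lower. The number called was then 12877, and 1128 were higher and 7864 lower at 2-fold or more. A log2 fold change between 0 and about 1.06 therefore changes sign under total counts. Each direction below is relative to the bulk of genes unless both scales are given. Calls under total counts in the lists below stand against 15.2% higher and 74.3% lower over all genes.

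**Figure D1:**
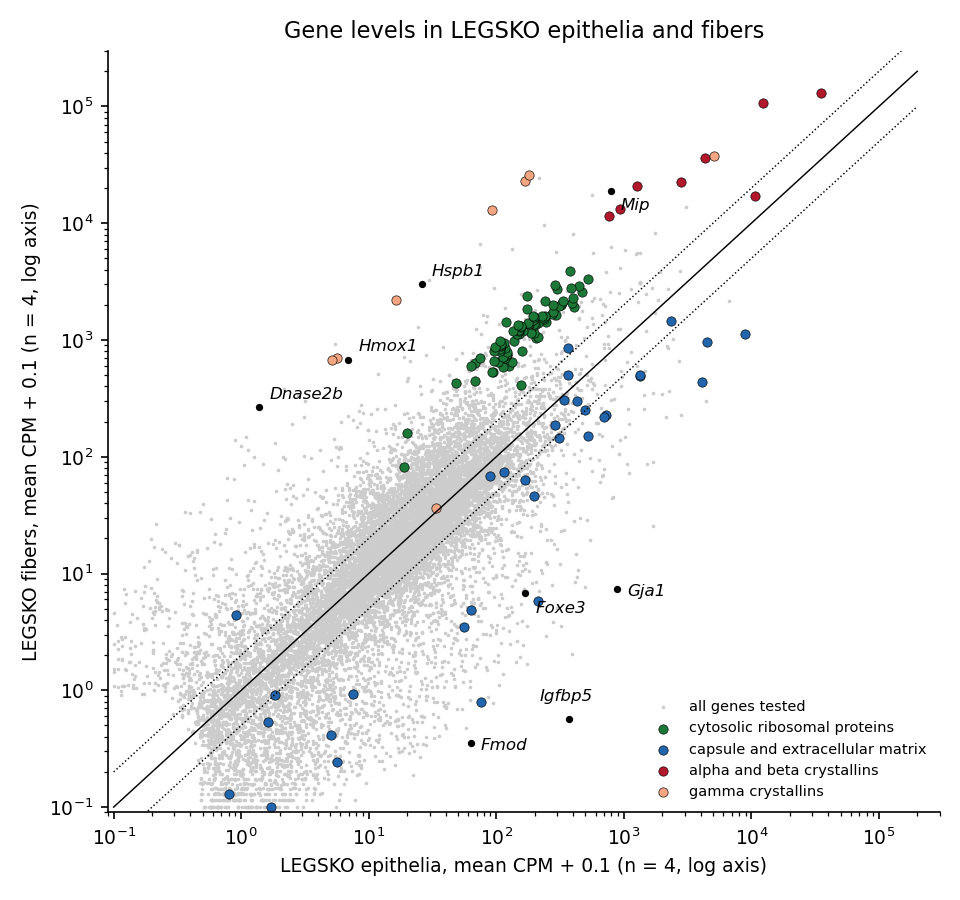
Mean CPM plus 0.1 of each gene in LEGSKO epithelia (x axis) and LEGSKO fibers (y axis), both on log axes, 4 libraries per group. The solid line marks equal levels and the dotted lines 2-fold. Cryga to Crygf, Dnase2b, Hmox1 and Hspb1 lie far above the solid line, and the 81 ribosomal protein genes lie above it as 1 group. Igfbp5, Fmod and Gja1 lie far below it.

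Crystallins, the structural proteins that give the lens its refractive power, took 29.6%, 34.3%, 33.1% and 30.5% of the counts in the 4 fiber libraries and 13.8%, 8.44%, 8.695% and 11.4% in the 4 epithelia libraries. The mean was 31.9% ± 2.18 (SD, n = 4) in fibers and 10.6% ± 2.53 (SD, n = 4) in epithelia, a difference of 21.3 percentage points. No fiber library reached down to any epithelia library, and the exact two-sided permutation test gave p = 0.0286, the smallest that 4 against 4 can give. With 1 library left out the smallest possible p is 0.0571, and the difference stayed between 20.5 and 22.3 points. Gamma crystallins alone made up 7.10% of fiber counts and 0.806% of epithelia counts, a ratio of 8.82, while the remaining crystallins made up 24.8% and 9.78%. These are shares of unscaled counts over the 8 gamma crystallin genes, Crygs among them. In epithelia Crygs held most of the gamma part, at 6356, 4403, 4151 and 5508 CPM against a mean sum of 5607 CPM.

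The 6 clustered gamma crystallin genes showed almost the same fold change. Cryga, Crygb, Crygc, Crygd, Cryge and Crygf stood between 128-fold and 142-fold higher in fibers, with log2 values from 7.0 to 7.15. Crygb, with the largest fold of the 6, was counted at 20199, 30940.5, 25858 and 25546 CPM in fibers and 215, 188, 144 and 177 CPM in epithelia. Crygd was counted at 9961, 15949.9, 13115 and 12410.1 CPM in fibers and 101, 99.2, 76.4 and 92.9 CPM in epithelia. For each gene the 4 libraries of a tissue lay close together, with fiber library 1 the lowest in fibers, and the tissues were separated by about 2 orders of magnitude. These genes are near-identical copies, and how the authors' counting treated shared reads is not given. The values of single copies and of their sum are therefore uncertain. With a smooth trend on transcript length removed from the counts, a fit added after the data were seen, the 6 genes stood at log2 values from 5.69 to 5.96, and the median of all 8 gamma crystallins, whose longest transcripts had a median of 703.5 nt, was 5.76 in place of 7.07. Crygs, the gamma crystallin kept through adult life, differed less, at 33318, 44505, 39312 and 34693 CPM in fibers against 6356, 4403, 4151 and 5508 CPM in epithelia, a 7.44-fold difference. Crygn showed no called difference, with a log2 value of 0.12 ± 0.16 (SE, adjusted p = 0.51), and its sign turned to -0.94 under total counts.

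The promoters of the gamma crystallins are shown because these genes moved together. The RefSeq table (GRCm38.p6) holds all 6. Each line gives the 100 bases before the annotated start, on the gene's own strand, with the words TTTGTG and TATATA in capitals. Cryga to Cryge lie on the minus strand of chromosome 1 at chr1:65103364-65103463, chr1:65082291-65082390, chr1:65073533-65073632, chr1:65063441-65063540 and chr1:65051164-65051263, and Crygf on its plus strand at chr1:65926422-65926521.
Cryga: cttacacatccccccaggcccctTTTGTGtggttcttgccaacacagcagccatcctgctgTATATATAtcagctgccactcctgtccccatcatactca
Crygb: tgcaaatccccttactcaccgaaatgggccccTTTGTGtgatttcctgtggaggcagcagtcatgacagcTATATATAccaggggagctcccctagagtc
Crygc: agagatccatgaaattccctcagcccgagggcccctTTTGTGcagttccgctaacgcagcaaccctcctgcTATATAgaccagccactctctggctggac
Crygd: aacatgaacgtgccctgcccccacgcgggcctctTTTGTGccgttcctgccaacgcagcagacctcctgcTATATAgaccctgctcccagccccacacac
Cryge: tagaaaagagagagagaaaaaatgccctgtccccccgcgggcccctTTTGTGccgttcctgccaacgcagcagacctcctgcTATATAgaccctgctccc
Crygf: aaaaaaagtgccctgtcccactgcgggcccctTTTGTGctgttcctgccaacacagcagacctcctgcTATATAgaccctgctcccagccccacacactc
Both words occurred in all 6 windows, which belong to near-identical gene copies and are not independent of each other. The shares over all promoters include these 6. Over the 32851 promoters of the table, TTTGTG occurred on either strand of the same window in 6.03%, TATATA, which reads the same on both strands, in 2.19%, and both together in 79 promoters (0.240%). Counted from the annotated start, the TATATA word began between positions -39 and -28 in 5 of the 6 and at -18 in Cryge. A word match describes the sequence and does not show that a factor binds there.

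Alpha and beta crystallins differed less than the gamma crystallins and more unevenly. The 8 genes were called higher in fibers (background 37.6%), with a median log2 of 3.11 against -0.08 over all genes. Cryaa, a small heat shock protein that keeps other crystallins soluble, was counted at 115378, 147243, 141596 and 115907 CPM in fibers and 47828, 26920.2, 27904 and 37778 CPM in epithelia, a 3.704-fold difference (adjusted p = 1.1e-06). Its partner Cryab was counted at 14694, 19952, 18686 and 14868 CPM in fibers and 12475, 8959, 9559 and 11963 CPM in epithelia, without overlap. The Cryab difference was 1.59-fold, the smallest of the 8, and its log2 value of 0.67 became -0.40 with total counts as the scale. With the length trend removed the median of the 8 genes was 2.34, and 7 were called higher, Cryab (log2 -0.10) being the other. Cryba2, Cryba1 and Crybb2 were 8.004-, 8.42- and 8.81-fold higher in fibers, and Crybb3, Crybb1 and Cryba4 14.3-, 15.03- and 16.4-fold higher.

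Genes of the fiber cytoskeleton and membrane skeleton were called in both directions. Of 27 tested (28 listed), 18 were higher (background 37.6%) and 7 lower (background 41.3%), with a median log2 of 1.09; under total counts the calls were 11 higher and 13 lower. Bfsp1 and Bfsp2, the subunits of the beaded filament, were 31.3-fold and 20.3-fold higher. Bfsp1 was counted at 15899.8, 20317, 16589 and 17324 CPM in fibers and 641, 569.6, 428 and 601 CPM in epithelia. Lgsn, lengsin, a glutamine synthetase-like protein of the lens, was counted at 22683, 27452, 22889.9 and 24503 CPM in fibers and 276, 229, 162 and 194 CPM in epithelia, a 113-fold difference. In both genes every fiber library lay more than an order of magnitude above every epithelia library. Lctl, a klotho family protein of the lens, was 57.3-fold higher, the cell adhesion gene Nrcam 13.1-fold, the spectrin Sptbn1 4.599-fold, and the pointed-end capping gene Tmod1 5.83-fold. Sptan1 was 2.35-fold higher, and was not called under total counts (adjusted p = 0.119). The intermediate filament gene Vim and the ankyrin Ank2 differed by only 1.42-fold and 1.33-fold, and their signs turned under total counts (log2 -0.56 and -0.64). Lower in fibers were Evpl, a plakin of cornified and other surface epithelia (26.8-fold), the tropomyosin Tpm1 (6.08-fold) and the adhesion gene Ncam1 (4.901-fold).

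The junction and channel genes were called in both directions, at shares (40% higher and 35% lower) near those of all genes. Of 20 tested (22 listed), 8 were called higher in fibers (background 37.6%) and 7 lower (background 41.3%), 5 were not called, and the median log2 was 0.00; total counts gave 6 higher and 12 lower. Mip, aquaporin 0 of the fiber membrane, was counted at 19196, 19109, 18099 and 18507 CPM in fibers and 1201, 704, 838 and 409 CPM in epithelia. Lim2, which encodes the fiber membrane protein MP20, was counted at 5591, 7101, 5969 and 5613 CPM in fibers and 188, 119, 129 and 94.2 CPM in epithelia. Fold changes were 23.8 for Mip and 45.8 for Lim2, and the fiber libraries varied less around their mean than the epithelia libraries did around theirs, where library 1 was the highest for both.

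Connexin genes of the lens ran in different directions. Gja1, connexin 43 of the epithelium, was counted at 16.1, 3.64, 2.76 and 6.36 CPM in fibers and 801, 941, 864 and 922 CPM in epithelia. It was 121-fold lower in fibers, with fiber library 1 the highest of the 4; without that library its log2 value moved from -6.92 to -7.69. Gja3, connexin 46 of the fiber gap junction, was counted at 1539.9, 1587, 1536 and 1483 CPM in fibers and 449, 452, 477 and 399.6 CPM in epithelia, 3.46-fold higher. Gje1, a further connexin gene, was 7.802-fold higher.

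Water channel and adhesion genes of this list also went in both directions. Aqp1, the epithelial water channel, was 22.7-fold lower in fibers. Aqp5, set down as an epithelial marker, went the other way, at 326, 341, 297 and 314 CPM in fibers and 53.3, 38.8, 36.6 and 36.7 CPM in epithelia, 7.72-fold higher in fibers without overlap. The cadherins also parted: Cdh1, E-cadherin, was 14.5-fold lower and Cdh2, N-cadherin, 2.01-fold higher, although the Cdh2 difference vanished under total counts (log2 -0.05). Epha2, a receptor needed for fiber packing, was 4.24-fold higher and its ligand gene Efna5 2.69-fold lower. Cldn1, a tight junction gene, had 0 counts in every fiber library and 1.31 ± 0.568 CPM (SD, n = 4) in epithelia, at least 29.5-fold lower in fibers against a floor of 3 counts over the group.

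**Figure D2:**
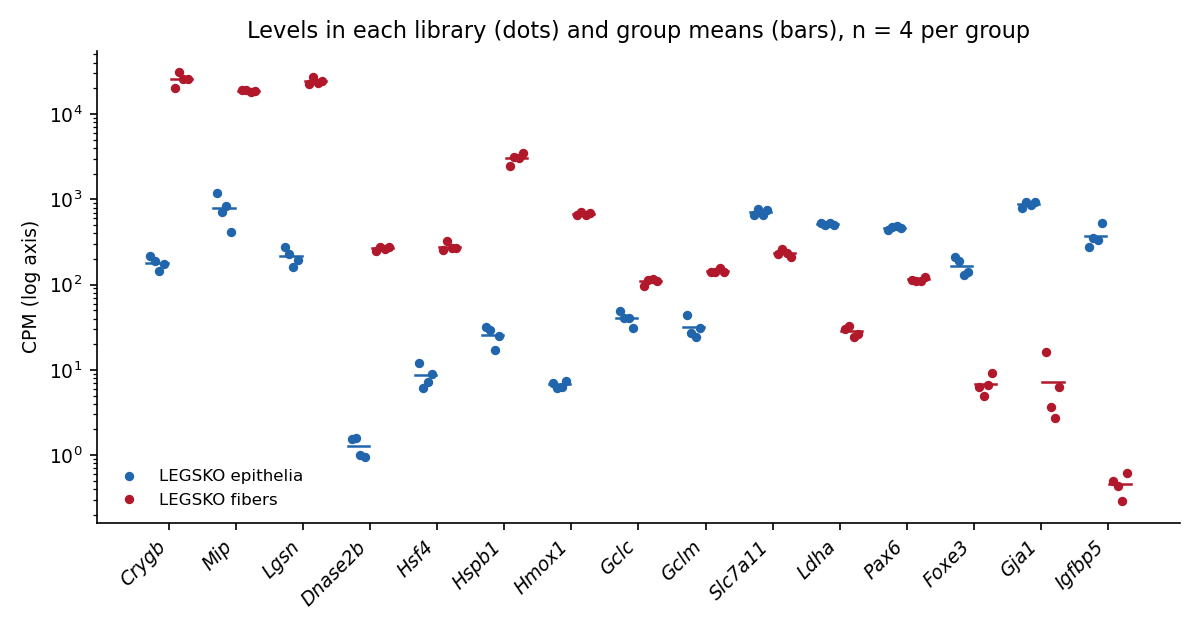
CPM on a log axis of 15 genes in each of the 4 LEGSKO epithelia (blue) and 4 LEGSKO fiber (red) libraries; dots are libraries and bars group means. The 2 colours do not overlap for any gene shown, Slc7a11 stands lower in fibers, and 1 fiber library stands above the other 3 for Gja1.

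Genes of nuclear and organelle breakdown included the gene with the largest increase among those named by rank. Dnase2b, the acid nuclease that degrades fiber cell DNA, was counted at 246, 279, 262 and 276 CPM in fibers and 1.53, 1.601, 1.01 and 0.954 CPM in epithelia, 209-fold higher (adjusted p = 2.9e-14). Hsf4, the heat shock factor required for fiber maturation, was counted at 253, 323, 269 and 270.0 CPM in fibers and 12.1, 6.16, 7.28 and 9.06 CPM in epithelia, 32.1-fold higher. Neither gene had any fiber library near an epithelia library. In the whole list 20 of 36 tested (39 listed) were called higher (background 37.6%) and 12 lower (background 41.3%), with a median log2 of 0.28, and total counts gave 9 higher and 24 lower. The mitophagy genes Pink1 and Bnip3l were 2.77- and 2.45-fold higher, the autophagosome gene Gabarapl1 8.48-fold, its transport adaptor Fyco1 2.25-fold (not called under total counts), and Plaat3, a phospholipase that opens organelle membranes in the lens, 7.36-fold. The caspase Casp6 was 4.86-fold lower. The lysosomal proteases Ctsl and Ctsb were 12.3-fold and 3.23-fold lower, and the nuclear lamina gene Lmnb1 3.41-fold lower. Cdkn1c, p57, which holds fiber cells out of the cycle, was counted at 406, 516, 451 and 442 CPM in fibers and 85.03, 62.8, 55.8 and 72.4 CPM in epithelia, 6.58-fold higher, while Cdkn1b was not called (log2 -0.10 ± 0.07 SE, adjusted p = 0.17).

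RNA granule proteins bind and store mRNA in cells that will lose their nuclei. Of 18 of their genes, 12 were called higher in fibers (background 37.6%) and 4 lower (background 41.3%), with a median log2 of 1.23, against 9 higher and 8 lower under total counts. Tdrd7, a Tudor protein whose loss causes cataract, was counted at 2666, 2777, 2685 and 2664 CPM in fibers and 255, 181, 178 and 218 CPM in epithelia, 12.97-fold higher. Its 4 fiber values were nearly equal and far above epithelia. Pabpc1, the poly(A) binding protein, was 7.31-fold higher, Caprin2 6.38-fold, the RNA-binding genes Rbm24, Carhsp1 and Celf1 5.55-, 5.09- and 2.54-fold. The splicing factor Rbm20 was 3.94-fold lower.

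Lens transcription factors were called in both directions. Of 30 tested (36 listed), 9 were called higher (background 37.6%) and 15 lower (background 41.3%), with a median log2 of -0.38, and 3 higher and 23 lower under total counts. Foxe3, the forkhead factor that keeps the epithelium dividing, was counted at 6.26, 4.95, 6.61 and 9.295 CPM in fibers and 209, 188, 129 and 142 CPM in epithelia, 24.7-fold lower. Pax6, the paired factor of the eye field, was counted at 114, 111, 112 and 123 CPM in fibers and 435, 469, 483 and 456 CPM in epithelia, 4.003-fold lower. Foxe3 thus stayed under 10 CPM in every fiber library, while Pax6 was well counted in all of them. Hes1, a Notch target, was 14.6-fold lower, Klf4 13.9-fold and Tfap2a 2.78-fold. Rxra and Sox1 were 2.88-fold and 2.38-fold higher. The crystallin regulators Maf, Prox1 and Sox2 were 1.88-, 1.79- and 1.54-fold higher, but with total counts their log2 values were -0.15, -0.20 and -0.43. Six3 and Pitx3 were not called (adjusted p = 0.117 and 0.352).

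The glutathione genes, the pathway targeted in these mice, were called in both directions. Gclc, reported above in every library, was 2.72-fold higher in fibers (adjusted p = 1.7e-08). Its regulatory partner Gclm was counted at 142, 142, 157 and 141 CPM in fibers and 43.9, 26.8, 24.5 and 31.2 CPM in epithelia, 4.61-fold higher. Gss, the synthetase of the second step, was counted at 598, 803, 692 and 642 CPM in fibers and 126, 92.3, 75.3 and 107 CPM in epithelia, 6.84-fold higher. The 3 synthesis genes were higher in every fiber library than in any epithelia library, and they were also called higher under total counts, with log2 values of 0.38, 1.15 and 1.71. Slc7a11, the cystine carrier, was counted at 231, 259, 234 and 212 CPM in fibers and 652, 761, 654 and 756 CPM in epithelia, 3.02-fold lower. Slc3a2, its heavy chain, was 10.6-fold lower, Ggt1, which breaks down external glutathione, 27.5-fold, and the efflux pump Abcc4 12.4-fold. Ggct, of the gamma-glutamyl cycle, was 3.31-fold higher, as were Slc25a39, which carries glutathione into mitochondria (3.1-fold), and the mitochondrial glutaredoxin Glrx2 (2.22-fold, not called under total counts). Gsr, which regenerates reduced glutathione, was 1.42-fold higher on the TMM scale and lower under total counts (log2 -0.56), and G6pdx, which supplies NADPH, was 1.61-fold lower. In all 11 of 33 tested (37 listed) were called higher (background 37.6%) and 18 lower (background 41.3%), with a median log2 of -0.52, and under total counts 5 higher and 27 lower.

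Other antioxidant genes also diverged. Hmox1, heme oxygenase 1, was counted at 653, 714, 657 and 688 CPM in fibers and 7.0, 6.199, 6.37 and 7.41 CPM in epithelia, 100.3-fold higher. The spread within either tissue was small beside that gap. Prdx1 and Prdx6, peroxiredoxins, were 3.53-fold and 2.48-fold higher and the mitochondrial thioredoxin Txn2 3.03-fold higher, and Txnrd3 and Txndc5 were 5.01-fold and 2.79-fold lower. Sod1, Cat and Gpx1, chosen after their values were seen, were 5.99-, 3.06- and 3.43-fold higher, and Gpx8, a peroxidase of the endoplasmic reticulum, was 29.7-fold lower. Gpx7, its close relative, averaged 1.84 ± 0.779 CPM in epithelia and 0.0453 ± 0.0595 CPM in fibers (SD, n = 4), a log2 of -5.21 that moved to -6.24 without fiber library 2. The glutathione S-transferases Gstm2, Gstm3, Gstm1 and Gstt1 were 23.2-, 12.6-, 12.3- and 17.1-fold lower. The Gstm genes are close paralogs, and shared reads may be divided among them or counted for each. For these 3 groups the calls were 6 higher and 9 lower of 18 peroxidase, catalase and dismutase genes, 9 higher and 5 lower of 16 thioredoxin genes, and 6 higher and 10 lower of 19 transferases tested (23 listed), against 37.6% higher and 41.3% lower over all genes. Under total counts they were 5 and 13, 4 and 11, and 3 and 13.

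Of the iron and metal genes, 11 of 16 tested (19 listed) were called lower in fibers (background 41.3%) and 3 higher (background 37.6%). Ftl1, the ferritin light chain that stores iron, was counted at 5177, 6611, 5180.4 and 5525 CPM in fibers and 301, 277, 275 and 327 CPM in epithelia, 19.1-fold higher and without overlap. Steap3, a ferrireductase, was 137-fold lower, and without fiber library 1, the highest of the 4, its log2 value moved from -7.10 to -9.94. Heph, hephaestin, which oxidises iron for export, was 33.99-fold lower. The 2 main metallothioneins went in opposite directions: Mt2 averaged 0.143 ± 0.134 CPM in fibers and 3.699 ± 1.47 CPM in epithelia, while Mt1, chosen after its values were seen, averaged 42.2 ± 6.91 CPM and 5.604 ± 0.824 CPM (SD, n = 4).

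Heat shock genes held large differences in both directions. Of the 27 tested, 17 were called higher (background 37.6%) and 4 lower (background 41.3%), with a median log2 of 0.71, and under total counts 10 higher and 16 lower. Hspb1, HSP27, was counted at 2436, 3134, 3028 and 3468 CPM in fibers and 31.6, 29.5, 17.1 and 25.1 CPM in epithelia, 117-fold higher. Hspa1a, an inducible HSP70, was counted at 1.28, 0.313, 0.403 and 0.936 CPM in fibers and 29.7, 27.6, 24.1 and 30.7 CPM in epithelia, 37.5-fold lower. The small chaperone was thus high in every fiber library and the inducible HSP70 in every epithelia library. Hspa1b, a near-identical copy of Hspa1a, was 41.2-fold lower, and reads that match both copies may be divided between them or counted for each. Dnajb1, an HSP40 partner of HSP70, was 26.2-fold higher, and Hspe1, the mitochondrial HSP10 gene, chosen after its values were seen, 13.5-fold higher.

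Promoters of 3 of these genes are shown because genes with a heat shock word stood on both sides of the comparison. The lines give the 150 bases before the annotated start from the same RefSeq table, on the gene's strand, with GAANNTTC and TTCNNGAA in capitals, 2 words that are each their own reverse complement and can overlap. Hspb1 lies at chr5:135887769-135887918 (plus strand), Hspe1 at chr1:55087998-55088147 (plus strand) and Hspa1a at chr17:34972157-34972306 (minus strand).
Hspb1: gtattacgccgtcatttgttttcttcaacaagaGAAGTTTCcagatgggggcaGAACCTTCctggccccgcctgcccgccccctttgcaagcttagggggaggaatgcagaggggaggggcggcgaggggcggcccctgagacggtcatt
Hspe1: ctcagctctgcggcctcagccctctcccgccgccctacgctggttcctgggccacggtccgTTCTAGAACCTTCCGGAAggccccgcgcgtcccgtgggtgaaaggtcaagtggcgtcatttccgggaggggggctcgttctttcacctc
Hspa1a: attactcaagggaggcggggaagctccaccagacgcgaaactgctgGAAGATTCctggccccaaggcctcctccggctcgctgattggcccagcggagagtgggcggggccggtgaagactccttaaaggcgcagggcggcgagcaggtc
At least 1 of the 2 words stood in the 250 bases before the start in 12.8% of the 32851 promoters. That share counts single promoters. A listed gene was counted where any of its promoters held a word, so the shares are on different units. Among the heat shock genes present in the table, at least 1 word stood in 7 of the 11 called higher. The same held for 2 of 4 called lower and 2 of 4 not called. The 2 called lower that held a word were Hspa1a and Hspa1b, which are near-identical copies. Hspb1 and Hspe1, both higher in fibers, and Hspa1a, lower in fibers, all held at least 1 word.

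Stress-response genes beyond the chaperones were also examined. Ccng1, a p53 target, was counted at 1703, 1538, 1588 and 1707 CPM in fibers and 98, 68.2, 57.2 and 89.6 CPM in epithelia, 20.9-fold higher. The p53-responsive genes Gadd45a and Eda2r were 19.98-fold and 18.98-fold higher, and Casp8, the initiator caspase of death receptors, was 17.98-fold lower. In the p53 and cell death list 16 of 29 tested (30 listed) were called higher (background 37.6%) and 10 lower (background 41.3%), with a median log2 of 0.91, and 11 higher and 14 lower under total counts. Genes of the unfolded protein and integrated stress response were called higher for 14 of 25 (28 listed) and lower for 8 (background 37.6% and 41.3%), with no gene lower at 2-fold or more, against 6 higher and 14 lower under total counts. Ppp1r15a, which restores translation after stress, was 10.9-fold higher, Herpud1 3.93-fold, Ddit3 3.69-fold, Atf4 3.53-fold and the chaperone Hsp90b1 2.15-fold, the last not called under total counts.

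The ribosomal protein genes moved as 1 block. All 81 were called higher in fibers at 2-fold or more (background 20.4%), and all 81 were also called higher with total counts as the scale. Their median log2 was 2.82 against -0.08 over all genes, or 1.75 against -1.14 under total counts. Together they took 6.96 to 8.24% of counts in fibers and 2.04 to 2.37% in epithelia. Rps3, of the small subunit, was counted at 3293, 4624, 3819 and 3727 CPM in fibers and 424, 359.9, 337 and 402 CPM in epithelia, 10.2-fold higher. The lowest fiber library for Rps3 was several times the highest epithelia library. Rpl28, Rps19 and Rps14 were 13.6-, 11.9- and 10.2-fold higher.

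Respiratory chain subunits were also higher as a group on the TMM scale. Of 76 tested, 70 were called higher (background 37.6%) and 3 lower, with a median log2 of 1.46. Total counts gave 47 higher and 20 lower (background 15.2% and 74.3%), with a median log2 of 0.40 against -1.14 over all genes. Cox7c and Cox4i1, of cytochrome c oxidase, were 11.7-fold and 7.92-fold higher, and Ndufb8 and Ndufb10, of complex I, 5.59-fold and 5.503-fold higher. Proteasome subunits were called higher for 34 of 38 (39 listed, background 37.6%), with a median log2 of 1.16. Under total counts 17 were higher and 16 lower (background 15.2% and 74.3%). Psmc5, Psmd4 and Psmc1, of the regulatory particle, were 6.63-, 5.96- and 4.25-fold higher. The inducible immunoproteasome subunit Psmb9 went down, from 0.616 ± 0.1403 CPM in epithelia to 0.0157 ± 0.0313 CPM in fibers (SD, n = 4), and its log2 value moved from -4.96 to -6.99 without fiber library 2.

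Transcript length moved with these results. Over the 13512 genes with a length in the GENCODE annotation, the median log2 fold change fell from 0.75 in the shortest of 10 length classes of equal size (1407 nt or less) to -0.40 in the longest class, and in the WT lenses from 0.81 to -0.36. The longest transcript had a median of 1059 nt for ribosomal protein genes, 1186 nt for respiratory chain genes and 3416 nt for all genes. With the length trend removed, 80 of the 81 ribosomal genes stayed 2-fold higher with a median log2 of 1.94, while the respiratory chain list gave 58 higher and 11 lower with a median of 0.59. Among the other lists, the proteasome median went from 1.16 to 0.81 and that of the p53 and cell death list from 0.91 to 0.47. Of the 195 named genes, 37 moved by 1.5-fold or more in that fit, each toward a lower value in fibers. Beyond the crystallin, ribosomal and respiratory chain genes, Hspb1 moved from 6.87 to 5.92, the ferritin gene Ftl1 from 4.25 to 3.34, the peroxidase gene Gpx1 from 1.78 to 0.98 and Foxe3 from -4.62 to -5.64.

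**Figure D3:**
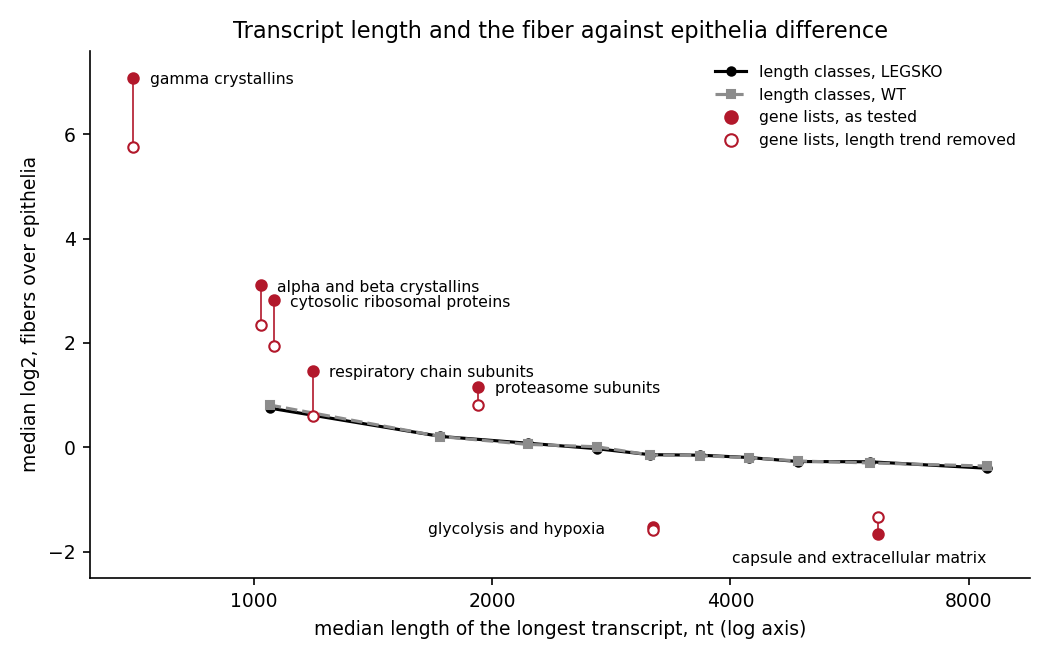
Median log2 fold change of LEGSKO fibers over epithelia (y axis) against the median length of the longest transcript in nt (x axis, log scale), for 10 length classes of genes in LEGSKO (black) and WT (grey), and for 7 gene lists as tested (filled red) and with the length trend removed (open red). The classes fall from 0.75 to -0.40 in LEGSKO, and the ribosomal protein genes lie above classes of similar length in both versions.

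Glycolysis and hypoxia genes were lower in fibers almost throughout. Of 29 tested, 24 were called lower (background 41.3%) and 4 higher, with a median log2 of -1.53 against -0.08 over all genes, and 27 were lower under total counts. Ldha, lactate dehydrogenase A, chosen after its values were seen, was counted at 30.3, 32.9, 24.6 and 26.7 CPM in fibers and 529, 504, 529.5 and 505 CPM in epithelia, 18.1-fold lower. The tissues were far apart in every library. Ldhb was 41.8-fold lower, the carbonic anhydrase Car9 26.05-fold and the glucose transporter Slc2a3 19.5-fold. The log2 value moved from -5.39 to -6.08 for Ldhb without fiber library 1 and from -4.28 to -4.99 for Slc2a3 without fiber library 2. Hif1a and Slc2a1, also chosen after their values were seen, were 15.1-fold and 6.97-fold lower. Ndrg1, a differentiation gene that also responds to hypoxia, went against the list, at 2739.8, 2948, 2685 and 2814 CPM in fibers and 121, 80.9, 76.2 and 105 CPM in epithelia, 29.2-fold higher. Gapdh was 1.63-fold higher on the TMM scale and lower under total counts (log2 -0.35).

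Ion pumps and channels were called lower in fibers for 20 of 32 tested (34 listed; background 41.3%) and higher for 9 (background 37.6%), with a median log2 of -1.44. The sodium pump beta subunits Atp1b1 and Atp1b3 were 28.98-fold and 9.79-fold lower. Slc24a4, a sodium, potassium and calcium exchanger, was counted at 141, 105, 127 and 149.9 CPM in fibers and 2.97, 1.94, 0.878 and 1.23 CPM in epithelia, 74.7-fold higher. These pump subunits thus stood higher in epithelia and this exchanger in fibers. Kcnma1, the large-conductance potassium channel, was 36.7-fold higher.

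Capsule and matrix genes were called lower in fibers for 28 of 32 tested (34 listed; background 41.3%) and higher for 3, with a median log2 of -1.67, and the list took 0.471 to 0.684% of counts in fibers against 3.61 to 4.59% in epithelia. Col4a1, the collagen of the lens capsule, was counted at 1287, 984, 1114 and 1111 CPM in fibers and 8115, 10439, 8337 and 8978 CPM in epithelia, 7.98-fold lower but still abundant in all fiber libraries. The integrin Itga3 was 37.3-fold lower, fibronectin Fn1 35.9-fold and Col1a2 105-fold. Col1a2 in fibers also depended on library 1, and its log2 value moved from -6.72 to -7.92 without it. Col1a1 had 0 counts in every fiber library and 1.62 ± 1.14 CPM (SD, n = 4) in epithelia, at least 36.3-fold lower. Epithelia library 3 was the highest, and without it the bound was 23.7-fold.

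Cell cycle genes were called lower in fibers for 32 of 43 (background 41.3%) and higher for 6, with a median log2 of -1.12. Top2a, the topoisomerase of dividing cells, was 39.8-fold lower, and its log2 value moved from -5.31 to -6.22 without fiber library 1. Cdk1 averaged 3.13 ± 0.4605 CPM in epithelia and 0.01397 ± 0.0279 CPM in fibers, Bub1 2.59 ± 0.336 CPM and 0.0296 ± 0.0342 CPM, and Aurkb 1.93 ± 0.376 CPM and 0.0436 ± 0.0542 CPM (SD, n = 4), so these mitotic genes were close to 0 in fibers. Without fiber library 1 the log2 value moved from -7.29 to -9.30 for Cdk1 and from -5.28 to -6.25 for Aurkb. Cdkn1c, given above, was the member with the largest increase.

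Of 23 Wnt pathway genes tested (29 listed), 15 were called lower (background 41.3%) and 6 higher (background 37.6%), with a median log2 of -1.10; the receptors Fzd2, Fzd1 and Fzd7 were 29.8-, 28.4- and 16.2-fold lower, with Fzd2 at a log2 of -5.68 in place of -4.90 without fiber library 3. Dkk3, which encodes a secreted Dickkopf family protein, was 1.23-fold higher on the TMM scale and lower under total counts (log2 -0.75). Among 23 FGF pathway genes tested (26 listed), 12 were called lower and 7 higher (background 41.3% and 37.6%), with a median log2 of -0.39. The feedback inhibitor Spry1 was 9.85-fold higher, and Il17rd, Fgfr4 and the ligand Fgf1 were 11.9-, 11.8- and 8.74-fold lower. Fgfr3 was 1.53-fold higher, with a log2 of -0.44 under total counts. Cholesterol genes were mixed, 17 called higher and 11 lower of 34 (background 37.6% and 41.3%), and 5 and 24 under total counts: Pmvk and Insig1 were 5.03-fold and 4.88-fold higher, and the transporters Abcg1 and Scarb1 4.72-fold and 4.58-fold lower. Srebf1 was 1.44-fold higher, with a log2 of -0.53 under total counts.

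**Figure D4:**
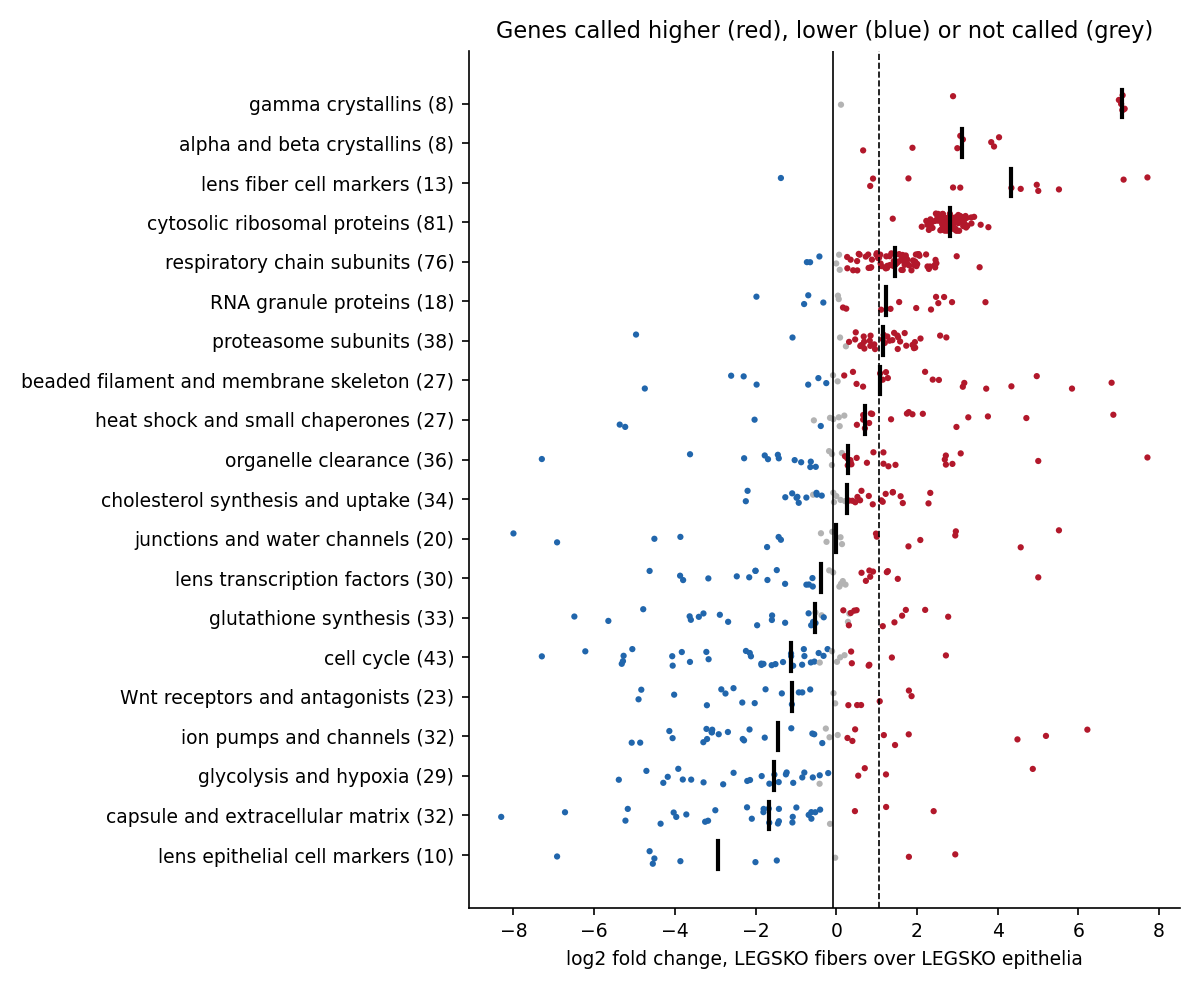
Log2 fold change of LEGSKO fibers over LEGSKO epithelia for the tested genes (dots) of 20 lists, with the number tested in brackets and black bars at the medians; red dots were called higher, blue lower, grey not called. The solid line marks the median of all genes (-0.08). Genes between it and the dashed line change sign, or come close to doing so, when total counts are the scale. The ribosomal genes and the gamma crystallin genes other than Crygn lie to the right of both lines, and Crygn lies between them.

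Beyond the lists, the genes with the largest differences were not all lens fiber genes by name. Among genes with a mean of at least 20 CPM in the higher tissue, no overlap and a symbol that is not a clone or predicted-gene name, the 12 largest increases included, beside Dnase2b, Birc7, an inhibitor of apoptosis (181-fold), Abcc6, a membrane transporter (176-fold), Tcp11 (173-fold) and Ccdc180 (146-fold), together with the 6 gamma crystallins. Tcp11, known from testis, was counted at 754, 1095, 954 and 899 CPM in fibers and 5.18, 5.86, 5.103 and 5.22 CPM in epithelia. By the same rule the largest decrease was in Igfbp5, which binds insulin-like growth factors, at 0.503, 0.439, 0.288 and 0.624 CPM in fibers and 276, 348, 335 and 522 CPM in epithelia, 795-fold lower. For both genes the tissues were separated in every library. Further decreases were in Fmod (243-fold), a collagen-binding proteoglycan, the potassium channel subunit Kcne4 (236-fold), R3hdml (203-fold), the complement inhibitor Serping1 (153-fold), Col8a2 (116-fold) and Col6a1 (108-fold). Penk, proenkephalin, was counted at 2.18, 0.125, 0.115 and 0.312 CPM in fibers and 66.7, 131, 104 and 73.8 CPM in epithelia, and fiber library 1 held most of its fiber counts. Without that library the log2 values moved from -7.03 to -8.95 for Penk, from -6.74 to -7.77 for the receptor tyrosine kinase Kit and from -6.80 to -7.40 for the kinase Pak3, and all stayed lower in fibers. Clu, clusterin, a secreted chaperone, was 3.08-fold lower.

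Markers of other cell types of the eye were summed in each library. Retinal photoreceptor markers (8 genes) summed to 6.96 to 47.4 CPM in fibers and 16.3 to 195 CPM in epithelia, so the tissues overlapped. Corneal and conjunctival markers (6 genes) summed to 20.1 to 50.6 CPM in fibers, where Krt12, Krt5 and Krt14 were at 0, and to 1559 to 2230 CPM in epithelia, nearly all of it Aldh3a1, which was 66.4-fold lower in fibers. Pigment cell markers (7 genes) summed to 10.8 to 15.4 CPM in fibers and 113 to 145 CPM in epithelia, mostly Oca2 (86.7-fold lower in fibers, with a log2 of -7.09 in place of -6.44 without fiber library 1), with Mlana at 0 in both tissues. Red blood cell markers (5 genes) summed to at most 8.09 CPM and immune markers (9 genes) to at most 2.72 CPM in any library. Hba-a1 and Hba-a2 had equal counts in every LEGSKO library of both tissues, so the red blood cell sum may hold the same reads for both genes. Vessel markers (6 genes) summed to 1.51 to 2.36 CPM in fibers and 0.238 to 0.845 CPM in epithelia, with Cdh5, Kdr, Emcn and Cldn5 at 0 in fibers. Muscle and stroma markers (8 genes) summed to 901 to 1077 CPM in fibers and 102 to 151 CPM in epithelia, nearly all of it Acta2 (8.01-fold higher in fibers), with Col1a1, Col3a1, Dcn, Lum and Kera at 0 in fibers. The part of these other cells in the values of either tissue was not tested.

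The same tissue difference was then set beside that of WT lenses, which share no library with the LEGSKO groups. For the 14139 genes tested in both, the log2 fold changes had a Pearson correlation of 0.966 and a Spearman correlation of 0.973 across genes, which are not independent replicates; without WT fiber library 1 the Pearson correlation was 0.9599. Both comparisons called 10019 genes, which is 89.7% of the LEGSKO calls and 94.3% of the WT calls, and 10018 of them had the same direction. Of the 5966 genes called at 2-fold or more in LEGSKO, 0 were called in the opposite direction in WT. The difference between the 2 tissue differences, tested over the 16 libraries as an interaction, was called for 5 of 15148 genes (0.033%), 2 higher in LEGSKO (0.0132%) and 3 lower (0.0198%). At an unadjusted p below 0.05 there were 1226 genes, and DESeq2 called 59. Without WT fiber library 1 the number called was 23, without WT epithelia library 1 it was 11, and with total counts as the scale it was 1, namely Tacr3.

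Tacr3, the neurokinin receptor gene, accounted for the largest of these differences. Its levels were 15.98, 20.2, 15.96 and 12.9 CPM in LEGSKO epithelia, 0.766, 0.306, 0.282 and 0.184 CPM in LEGSKO fibers, 0.195, 0.1001, 0 and 0.0876 CPM in WT epithelia and 0.157, 0.491, 0.638 and 0.193 CPM in WT fibers. It was thus well counted only in the 4 LEGSKO epithelia libraries of these 16, and the tissue difference in LEGSKO minus that in WT was -7.35 ± 0.75 on the log2 scale (SE, edgeR adjusted p = 0.000175), or -7.95 without LEGSKO fiber library 1. Manba, a lysosomal mannosidase gene whose start lies 551030 bases from the end of Tacr3 on chromosome 3, was at 21.6, 22.5, 22.1 and 23.8 CPM in LEGSKO fibers, 13.4, 19.6, 14.1 and 14.8 CPM in LEGSKO epithelia, 9.86, 13.6, 10.1 and 12.6 CPM in WT fibers and 21.5, 19.4, 22.7 and 19.7 CPM in WT epithelia. Its direction turned, with a log2 of 0.55 in LEGSKO and -0.85 in WT, and the difference of 1.38 was called (adjusted p = 0.00132), though not under total counts (adjusted p = 0.0808). Amz1, a metalloprotease gene, was higher in fibers in both genotypes, with a log2 of 1.72 in LEGSKO and 4.07 in WT. Tcaf2 was lower in fibers in both, with a log2 of -0.27 in LEGSKO and -1.11 in WT, and so was 1700025G04Rik, outside the rule for named genes, with -1.06 and -0.36. Amz1 and Tcaf2 passed the threshold narrowly (adjusted p = 0.0483 for both), and the call was lost in 10 and 12 of the 16 fits that left out 1 library.

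The synthesis genes of glutathione did not differ detectably in their tissue difference between the genotypes. Gclc had a log2 of 1.44 in LEGSKO and 1.22 in WT, a difference of 0.20 ± 0.25 (SE, adjusted p = 0.890). Gclm had 2.20 and 1.97, a difference of 0.21 ± 0.20 (adjusted p = 0.831), and Gss 2.77 and 2.56, a difference of 0.20 ± 0.18 (adjusted p = 0.836). Slc7a11 had -1.59 and -1.36, a difference of -0.25 ± 0.15 (adjusted p = 0.728). A p that misses the threshold does not show that the genotypes were alike. Mt2 had -4.59 in LEGSKO and -0.09 in WT, a difference of -4.54 ± 1.04 (adjusted p = 0.169), and Mt1 2.91 and 1.2, a difference of 1.65 ± 0.36 (adjusted p = 0.144), neither of which was called.

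**Figure D5:**
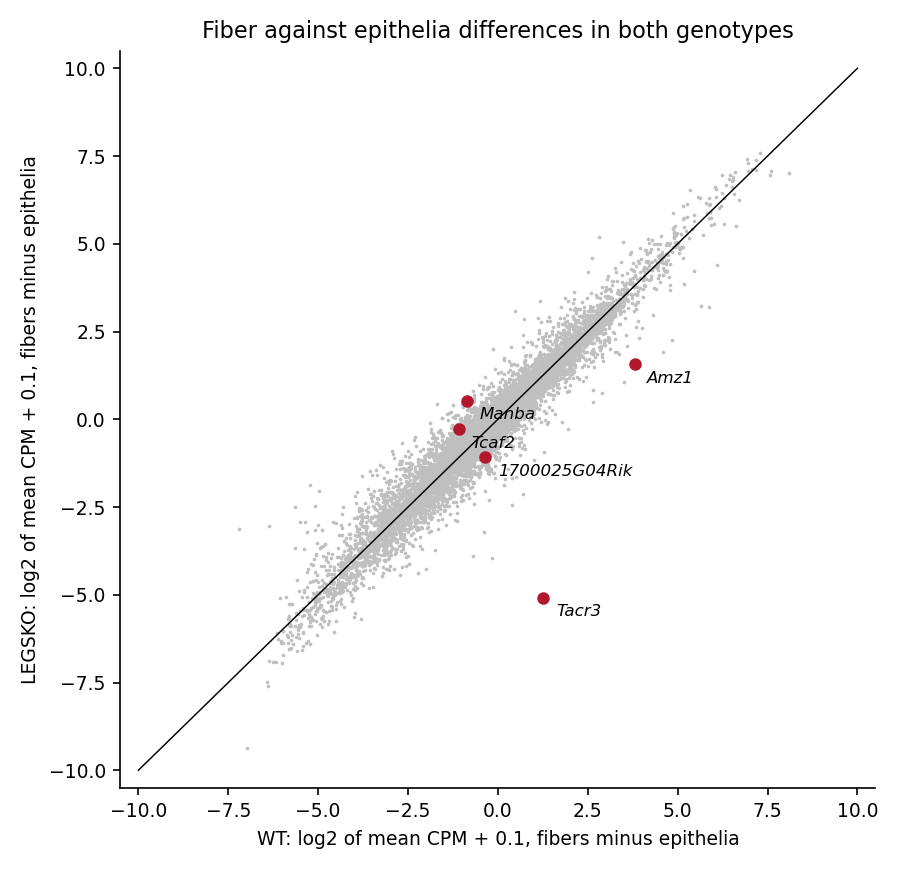
Difference between fibers and epithelia in log2 of mean CPM plus 0.1 for each gene in WT (x axis) and LEGSKO (y axis), 4 libraries per group, with the line of equal differences. Grey dots lie along the line (Pearson r of the fitted values 0.966), and the 5 genes called for a difference between genotypes are red, with Tacr3 the farthest from the line.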

How the data were processed

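The authors deposited a single table of raw counts, whole numbers for 24415 Entrez gene identifiers in 24 mouse lens libraries. Groups and replicate numbers came from the sample titles. TopHat, DESeq, bcl2fastq and CASAVA 1.8 are named, with no role, per the submitters' processing notes, as is the build mm10 (GRCm38). Neither the read counter nor its annotation or strand setting is stated there, so overlapping and antisense genes cannot be separated. Symbols came from a RefSeq gene table (24334 identifiers matched; the other 81 held 0.914% of counts and stayed in the tests).

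The 8 LEGSKO libraries (20210161 to 25542479 counts each) were filtered with filterByExpr (minimum count 10), scaled by TMM and tested with edgeR 4.0.16 (R 4.3.3; glmQLFit and glmQLFTest, two-sided, Benjamini-Hochberg over all genes tested, threshold 0.05). Standard errors were derived from the F statistic and the fold change. The interaction was fitted over 16 libraries. The biological coefficient of variation was 10.9% and 14.2% in the 2 fits. Crystallin shares were compared by an exact permutation test. The procedure was tested on simulated data with the same spread for every gene. Changes were put only into a small share of genes, all of them well counted. The other genes were simulated at the same level in every group. The recovery rates therefore do not cover genes of low count or the shift in scale between these tissues. Of 2-fold changes, the tissue fit recovered 97.0% and the interaction fit 73.1%. Of 1.5-fold changes, they recovered 59.7% and 16.4%, so the interaction could miss many differences of that size. Replicate numbers were not used as a block. Fold floors for genes at 0 used 3 counts over the group.

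Named genes were the 12 highest and 12 lowest folds (adjusted p below 0.05, mean CPM of at least 20 in the higher group, no overlap), any member of 8 core lists, up to 4 called members with the largest change plus the member with the highest mean of the other lists, and the genes called in the interaction; some genes that this rule names are not reported here. Gene lists and the comparison itself were chosen with earlier results of these data known. Alternatives were DESeq2 1.42.0, its size factors, total counts, crystallins left out of the totals, no filter, all 24 libraries, a replicate block, each library left out, and, added after the data were seen, a length trend removed with lengths from GENCODE.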

Additional observations from a re-analysis of the deposited data

Results flagged for a closer look

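Among 76 groups of 4 libraries checked for a library far from the others, 5 had one, and chance alone gives about 1 in 20. Fiber library 1 of LEGSKO was the high one for Penk, at 2.18 CPM against 0.115 to 0.312. Penk stayed lower in fibers without it. Fiber library 3 was high for Gclm at 157 CPM. Epithelia library 1 was high for Aqp5 at 53.3 CPM and epithelia library 2 for Tcp11 at 5.86 CPM, and none of these changed the order of the tissues. WT fiber library 1 had 50.1% of its counts on crystallins where its 3 fellow libraries had 27.6 to 29.6%; it enters the WT tissue difference, whose Pearson correlation with that of LEGSKO was 0.9599 without it, and the interaction, where 23 genes were called without it.

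A difference between the genotypes in the tissue difference was called for 5 genes, with log2 values in LEGSKO minus WT of -7.35 for Tacr3, 1.38 for Manba, -0.72 for 1700025G04Rik, -2.36 for Amz1 and 0.83 for Tcaf2. The calls of Tacr3, Manba and 1700025G04Rik held in each of the 16 fits that left out 1 library, with adjusted p of at most 0.045.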

How the results depend on the processing

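The number of genes called between LEGSKO fibers and epithelia (11345, and 6147 at 2-fold or more) stayed within 1.5 times of itself under every alternative run. With 1 library left out it ran from 11114 to 11338, or 6152 to 6361 at 2-fold or more, with 5311 to 5427 higher and 5790 to 5920 lower, and 2928 to 3031 higher and 3202 to 3335 lower at 2-fold or more. Total counts as the scale changed the split to 2183 higher and 10694 lower (1128 and 7864 at 2-fold or more). Of 195 named genes, 191 were called and 15 changed sign under total counts: Cryab (-0.40), Crygn (-0.94), Vim (-0.56), Ank2 (-0.64), Cdh2 (-0.0535), Maf (-0.15), Prox1 (-0.20), Sox2 (-0.43), Six3 (-0.94), Pitx3 (-0.98), Gsr (-0.56), Gapdh (-0.35), Srebf1 (-0.53), Fgfr3 (-0.44) and Dkk3 (-0.75). Removing the length trend turned Cryab to -0.10, Crygn to -1.03, Cdkn1b to 0.0597 and Pitx3 to -0.48, and Crygn ran from -0.0205 (without epithelia library 2) to 0.29 with 1 library left out. The 5 genes of the interaction became 1 under total counts, 8 with the replicate block, 9 without a filter, 16 with all 24 libraries and 59 with DESeq2, and ran from 3 to 23 with 1 library left out, the highest without WT fiber library 1, followed by 11 without WT epithelia library 1; the cause was not tested. The call of Tyr was lost with all 24 libraries (adjusted p = 0.0687) and with the length trend removed (adjusted p = 0.894). It was also lost in several of the fits without 1 library (adjusted p up to 0.0683). The replicate block called 11087 genes between the tissues. It lost the calls of Dkk3 (0.30, adjusted p = 0.0628), Tyr (-0.27, adjusted p = 0.0536) and, in the interaction, of Amz1 (adjusted p = 0.110) and Tcaf2 (adjusted p = 0.0942). The numbers were not taken to pair the samples: deviations from the group means of same-numbered libraries correlated at -0.18 to 0.0222 in LEGSKO and 0.0901 to 0.36 in WT, over 0.1 in 0 of 4 and 3 of 4 pairs, and 0 of 4 LEGSKO and 2 of 4 WT fiber libraries correlated best with their own number. The crystallin share difference of 21.3 points ran from 20.5 to 22.3 with 1 library left out (exact p = 0.0571, the smallest that 3 against 4 allows). The 4 libraries a group and their depth limit what can be said of genes near 0 in fibers.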
